A study of Saccharomyces cerevisiae with 20 samples.

Results

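The 4 genes described here encode the glucose-phosphorylating isoenzymes of *Saccharomyces cerevisiae*: *HXK1* (YFR053C), *HXK2* (YGL253W), *GLK1* (YCL040W) and *EMI2* (YDR516C). They were picked by gene identifier out of 7126 genes listed in each table of read counts. The mRNA of double mutants that lack modifications in the anticodon loop of tRNAs was sequenced beside that of the wild type (WT), and the question for these genes was how the isoenzyme used on glucose and those repressed by glucose were set in each mutant. The strains are in the BY4741 background (a haploid MATa laboratory strain with *his3*, *leu2*, *met15* and *ura3* deletions), and the labels add *lys2* for every strain, WT included. The groups are *elp3 deg1* and *urm1 deg1*, *elp3 tcd1* with *urm1 tcd1*, and WT, with 4 libraries each, from cells grown in synthetic minimal medium (YNB) to an OD600 of 1.0. *ELP3* is needed for the mcm5 side chain and *URM1* for the thiolation of the wobble uridine, *DEG1* makes pseudouridine at position 38, and *TCD1* forms the cyclic ct6A next to the anticodon. Each mutant is 1 double deletion strain, single mutants are not analysed here, and the labels do not say that libraries of a group came from separate cultures, so p-values measure only the spread between these libraries.

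Hexokinases and glucokinases add a phosphate to glucose as it enters the cell, which traps the sugar and starts glycolysis. Hxk2 is the main enzyme of cells growing on glucose and has a second role in the nucleus, where it takes part in glucose repression together with the repressor Mig1. Hxk1, its close relative, and the glucokinase Glk1 are normally low on glucose and are made as glucose runs out or on other carbon sources. Hexokinases also accept fructose, while glucokinase is restricted to glucose and related aldoses. Emi2 is the relative of Glk1, a putative glucokinase first found through a need in early meiotic gene expression, and its gene is also counted among those repressed by glucose through Mig1.

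On the R64 genome the genes lie on 4 chromosomes: *HXK1* at chrVI:253592-255049 on the minus strand, *HXK2* at chrVII:23935-25395 on the plus strand, *GLK1* at chrIII:50838-52340 on the plus strand and *EMI2* at chrIV:1474974-1476476 on the minus strand. To show how the upstream regions of the 4 genes differ, the 800 bases before each start codon were searched on both strands for words related to the repressor Mig1 (the word CCGGGG, the word CTGGGG, the word GCGGGG and the word GTGGGG) and for the stress response element (STRE, CCCCT). Words of the Mig1 type numbered 4 before *HXK1*, 2 before *HXK2*, 1 before *GLK1* and 1 before *EMI2*, and 35.8% of the 6003 genes searched had at least 1. The STRE word was found 5 times before *HXK1*, 4 times before *GLK1*, 3 times before *EMI2* and 0 times before *HXK2*, and 48.2% of genes had at least 1. No word of one kind overlapped one of the other in these 4 regions. A match of letters is a description and not a binding site. For each gene, the stretch of 120 bases with most of these words, among those that end at least 150 bases before the start codon, is given 5′ to 3′ on the strand of the gene, from RefSeq's R64 sequence, with the words of both kinds in capitals. The stretches are chrVI:255522-255641, chrVII:23333-23452, chrIII:50569-50688 and chrIV:1476712-1476831, in the order of the lines.
HXK1: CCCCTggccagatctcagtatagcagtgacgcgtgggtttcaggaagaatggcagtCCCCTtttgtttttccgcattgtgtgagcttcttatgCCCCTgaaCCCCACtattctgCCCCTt
HXK2: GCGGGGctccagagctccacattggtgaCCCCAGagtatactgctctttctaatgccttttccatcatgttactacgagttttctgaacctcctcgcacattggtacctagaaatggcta
GLK1: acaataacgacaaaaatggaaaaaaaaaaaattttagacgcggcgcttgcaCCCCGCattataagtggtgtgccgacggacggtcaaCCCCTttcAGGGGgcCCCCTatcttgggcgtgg
EMI2: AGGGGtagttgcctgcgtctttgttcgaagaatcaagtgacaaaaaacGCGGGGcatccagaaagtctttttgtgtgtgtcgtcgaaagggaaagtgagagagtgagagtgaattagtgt

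The genes form 2 pairs of relatives, which matters for counting reads. Over aligned residues the products of *HXK1* and *HXK2* are 77.5% identical and those of *GLK1* and *EMI2* 73.2%, while a member of one pair and a member of the other are between 39.7% and 41.4% identical. The first 60 coding bases show the likeness, with the bases that differ within a pair in capitals: 5 differ between *HXK1* and *HXK2*, and 24 between *GLK1* and *EMI2*.
HXK1: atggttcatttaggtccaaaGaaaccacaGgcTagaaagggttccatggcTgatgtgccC
HXK2: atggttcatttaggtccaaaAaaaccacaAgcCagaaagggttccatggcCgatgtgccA
GLK1: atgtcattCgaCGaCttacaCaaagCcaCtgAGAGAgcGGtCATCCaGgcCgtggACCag
EMI2: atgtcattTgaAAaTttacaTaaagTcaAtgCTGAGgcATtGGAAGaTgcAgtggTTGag
No window of 58 bases of any of the genes had an exact copy elsewhere in the genome. The closest windows differed by 4 bases between *HXK1* and *HXK2* and by 9 between *GLK1* and *EMI2*, so a read should be assigned to one relative. Reads that touch bases that 2 genes share on the same strand were not counted. The shared stretches are 143 bases (9.81%) of *HXK1*, shared with YFR052C-A, and 106 bases (7.05%) of *GLK1*, shared with YCL042W. Reads that only partly reach into a shared stretch are lost too, so the part affected is longer than the stretch. This lowers the counts of both genes in every library.

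The libraries held 3273876 to 3926511 counts, so 3 counts, the limit that a count of 0 allows, equal 0.764 to 0.916 counts per 1e6 counts of the library. The CPM values below are counts per 1e6 counts divided further by a TMM factor, which corrects for the make-up of each library and lay between 0.851 and 1.097 in the libraries used. The members had between 230 and 5206 counts in each library. This limit covers counting error only. The deleted genes were near 0 where the labels place the deletions, with exceptions under both *tcd1* labels. Replicate 4 labelled *elp3 tcd1* held 345 counts of *ELP3* and 0 of *URM1*, and replicate 4 labelled *urm1 tcd1* held 5 counts of *ELP3* and 174 of *URM1*. Both were left out, which leaves 18 libraries with 3 under each *tcd1* label, and values with both libraries kept are given where they bear on a call, and for the joint share of the repressed genes, the sum of all 4 genes and the ratios. Replicates 1 to 3 labelled *elp3 tcd1* still held 147 to 185 counts of *TCD1*. Their mean was 40.6% of that in WT, in counts per 1e6 counts, here without the TMM factor. Replicate 4 of that label held 0 counts of *TCD1*, and replicate 4 labelled *urm1 tcd1* held 154. In the 3 libraries labelled *urm1 tcd1* the genes of chromosome XI were about doubled relative to the other genes of the library. Their median log2 difference from WT was 1.01 to 1.02, once the median over all chromosomes in that library was subtracted. This median was 1.00 in replicate 4 labelled *elp3 tcd1* and -0.01 in replicate 4 labelled *urm1 tcd1*. In all these values each replicate 4 resembled replicates 1 to 3 of the other *tcd1* label. Fits with both kept thus join unlike libraries under 1 label. An exchange of labels was not tested. The chromosomes of the 4 members had medians between -0.11 and 0.07 in every library used. The a-cell receptor gene *STE2* had 492 to 7115 counts, highest in *urm1 deg1* and lowest in *elp3 deg1*, and the alpha-cell pheromone gene *MF(ALPHA)1* 1 to 45, while *LEU2*, *MET17* and *URA3* had 0 counts in every library, and *HIS3* had 648 to 1820 and *LYS2* 14 to 110.

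Each mutant was set against the same 4 WT libraries with edgeR's quasi-likelihood test after TMM scaling. Of 5849 tested genes, those whose p after Benjamini-Hochberg adjustment was 0.01 or less are called and said to have risen or fallen. Large parts of the transcriptome passed this threshold, so a call by itself does not set the 4 genes apart. In *elp3 deg1*, 2 of the 4 genes rose and 2 fell, where 33.1% of all tested genes rose and 33.4% fell. With the library totals alone as the scaling, the split over all genes in this mutant was 25.5% and 43.8%. In *urm1 deg1*, 2 rose and 2 fell, beside 33.2% and 33.1% of all genes. In the libraries labelled *elp3 tcd1*, 2 rose and 2 fell, beside 32.1% and 32.3%. In those labelled *urm1 tcd1*, 1 rose and 2 fell, beside 32.8% and 32.2% of all genes, and with library totals alone 1172 genes rose and 3097 (52.9%) fell. The genes that changed did so in one pattern of signs: *HXK2* and *EMI2* fell in all 4 mutants, *GLK1* rose in all 4, and *HXK1* rose in 3. The 4 comparisons share their WT libraries, so these signs are not independent of each other. In RNA of whole cultures, less RNA per cell and fewer cells with the RNA cannot be told apart.

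**Figure D1:**
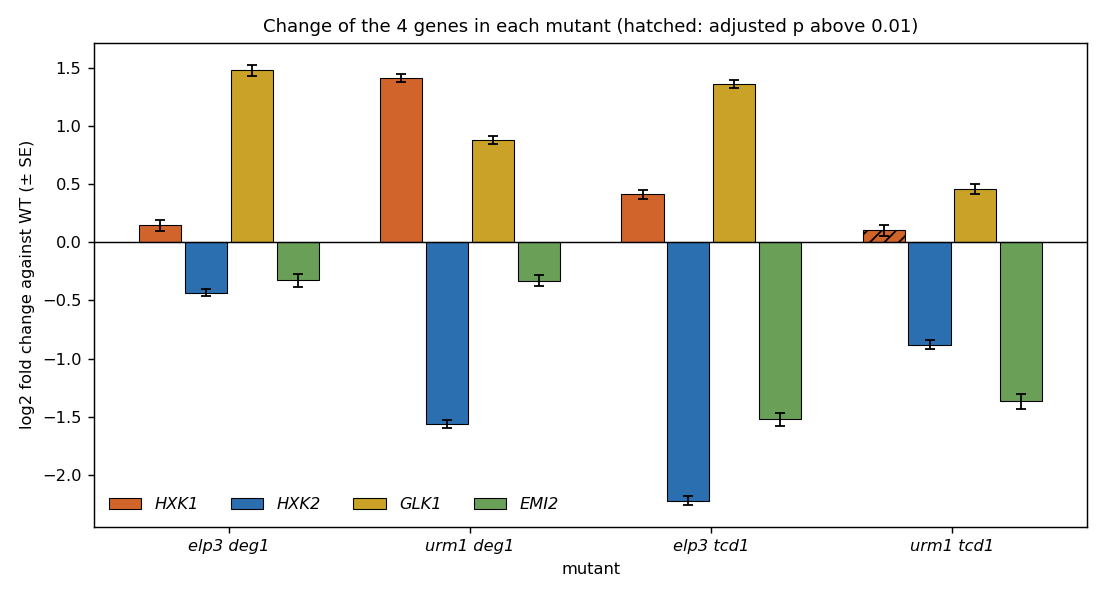
Log2 fold changes of the 4 genes against WT (vertical axis, bars with standard errors) in each mutant (horizontal axis), with hatching where the adjusted p was above 0.01. The bars of *HXK2* and *EMI2* point down and those of *GLK1* up in every mutant, and *HXK1* ranges from 0.10 in the libraries labelled *urm1 tcd1* to 1.41 in *urm1 deg1*.

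Levels were compared between genes as CPM per kilobase of the whole gene, a length that includes the uncounted bases of *HXK1* and *GLK1* and so understates both. In *elp3 deg1*, *GLK1* was the highest at 888 ± 75 CPM per kilobase, ahead of *HXK2* at 693 ± 15 (SD, n = 4). In *urm1 deg1*, *HXK1* was the highest at 758 ± 28, ahead of *GLK1* at 596 ± 17 (SD, n = 4). Under the label *elp3 tcd1*, *GLK1* led with 826 ± 21 CPM per kilobase, and *HXK2* with 202 ± 5 lay below *HXK1* with 375 ± 13 (SD, n = 3). Among the mutants, the libraries labelled *urm1 tcd1* alone had *HXK2* first, at 506 ± 33, ahead of *GLK1* at 436 ± 5 and *HXK1* at 299 ± 10 (SD, n = 3), which is the order of WT. In WT, *HXK2* stood at 938 ± 36 CPM per kilobase, *GLK1* at 319 ± 24, *HXK1* at 281 ± 20 and *EMI2* at 144 ± 10 (SD, n = 4). *EMI2* was the lowest of the 4 genes in every group.

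**Figure D2:**
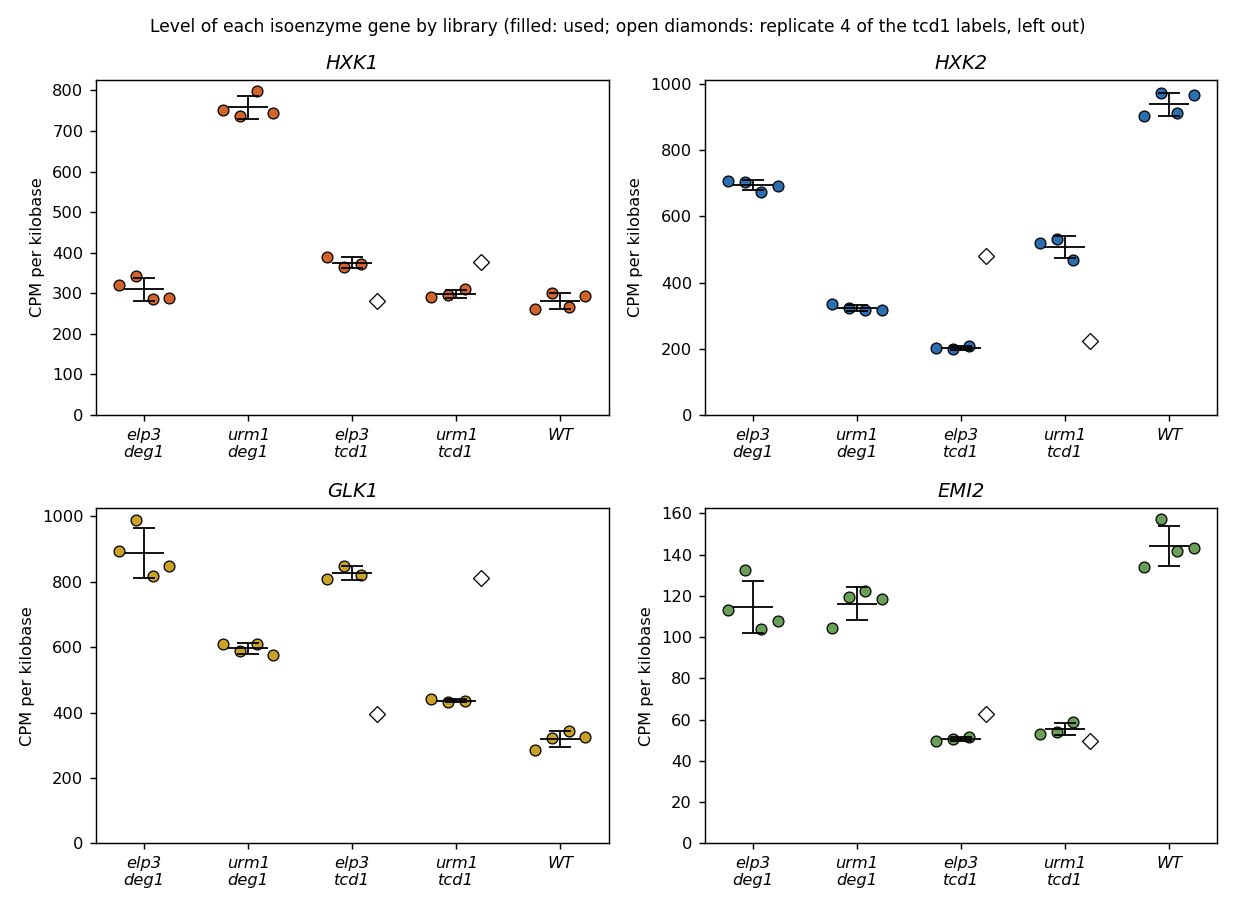
Level of each gene in CPM per kilobase (vertical axes, from 0) in every library, by group (horizontal axes), with the mean and SD of the libraries used and with open diamonds for the libraries left out. *HXK2* is highest and *GLK1* lowest in WT, and the open diamonds of *HXK2* and *GLK1* lie near the other *tcd1* label.

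*HXK2*, the isoenzyme of growth on glucose, fell in all 4 mutants, by 1.35-fold to 4.66-fold. It was at 1032, 1026, 983 and 1009 CPM in *elp3 deg1* and at 488, 472, 465 and 463 CPM in *urm1 deg1*. Under the label *elp3 tcd1* it was at 294, 289 and 304 CPM, and under *urm1 tcd1* at 759.5, 775 and 685 CPM. WT libraries held 1319, 1419.8, 1330.4 and 1409.5 CPM. No mutant library reached the WT range, and none of the 5 groups overlapped another, with *elp3 tcd1* lowest, then *urm1 deg1*, *urm1 tcd1*, *elp3 deg1* and WT. Here and for the members below, the share of all tested genes with such separate ranges was not counted. Between mutants, 59.9% to 68.3% of all tested genes were called, so separate ranges do not set a member apart. The log2 fold change was -0.43 ± 0.03 in *elp3 deg1* (SE, edgeR adjusted p = 3.86e-14) and -1.56 ± 0.03 in *urm1 deg1* (SE, edgeR adjusted p = 6.67e-38). Under the label *elp3 tcd1* it was -2.22 ± 0.04 (SE, edgeR adjusted p = 3.22e-51), at percentile 0.41 of the log2 fold changes of the tested genes. Under the label *urm1 tcd1* it was -0.88 ± 0.04 (SE, edgeR adjusted p = 1.78e-21). With both replicate 4 libraries kept, *HXK2* was still called in both, at -1.79 (edgeR adjusted p = 0.00124) and -1.11 (edgeR adjusted p = 0.00464).

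*HXK1*, the relative of *HXK2* that glucose normally represses, rose most in *urm1 deg1* and had values near WT in *elp3 deg1* and under the label *urm1 tcd1*. It had 1096, 1075, 1165 and 1086 CPM in *urm1 deg1*, against 381, 437, 388 and 429 CPM in WT, and these groups lay far apart. The rise in *urm1 deg1* was 2.66-fold (log2 1.41 ± 0.04 SE, edgeR adjusted p = 7.71e-34). The libraries labelled *elp3 tcd1* held 568, 531 and 541 CPM, all above WT, a rise of 1.33-fold (log2 0.41 ± 0.04 SE, edgeR adjusted p = 3.73e-14). With replicate 4 kept this value was 0.32 and was no longer called (edgeR adjusted p = 0.0439).

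The other 2 values of *HXK1* lie at the limit of the test. In *elp3 deg1* it had 466, 501, 416 and 422 CPM, a range that overlaps WT, and the log2 fold change of 0.14 ± 0.05 (SE) was called with an edgeR adjusted p of 0.00972. DESeq2 did not call it (0.15, DESeq2 adjusted p = 0.0221), nor did library totals alone (0.01, edgeR adjusted p = 0.899). The call was also lost without *elp3 deg1* replicate 1 (0.13), without *elp3 deg1* replicate 2 (0.09), without WT replicate 1 (0.11) and without WT replicate 3 (0.12). The study chose *HXK1* as its marker of glucose starvation. By qRT-PCR relative to *ACT1*, another measure, it reported a much larger rise in *elp3 deg1* in exponential phase. The reason for this difference was not tested. The libraries labelled *urm1 tcd1* held 426, 431 and 453 CPM of *HXK1*, overlapping WT, with a log2 fold change of 0.10 that was not called (edgeR adjusted p = 0.0421, 95% interval 0.01 to 0.19). This value had the opposite sign with library totals alone (-0.18, edgeR adjusted p = 0.000425), where the median of all genes in that comparison moved to -0.30, and it was called without the genes of chromosome XI (0.14, edgeR adjusted p = 0.00654).

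*GLK1*, the glucokinase gene that glucose normally represses, rose in all 4 mutants, and most in both *elp3* strains. It reached 1345, 1488, 1229 and 1275 CPM in *elp3 deg1* and 918, 886, 915 and 865 CPM in *urm1 deg1*. The libraries labelled *elp3 tcd1* held 1215, 1276 and 1233 CPM and those labelled *urm1 tcd1* 665, 649 and 653 CPM. In WT it was at 430.2, 484, 517 and 488 CPM. No mutant library overlapped WT, and among the mutants only *elp3 deg1* and the libraries labelled *elp3 tcd1* overlapped. As for *HXK2*, how many of all tested genes had such ranges was not counted. The rise was 2.79-fold in *elp3 deg1* (log2 1.48 ± 0.05 SE, edgeR adjusted p = 5.6e-24) and 1.84-fold in *urm1 deg1* (log2 0.88 ± 0.04 SE, edgeR adjusted p = 1.37e-25). It was 2.57-fold under the label *elp3 tcd1* (log2 1.36 ± 0.04 SE, edgeR adjusted p = 2.53e-40) and 1.37-fold under *urm1 tcd1* (log2 0.46 ± 0.04 SE, edgeR adjusted p = 5.48e-12). With both replicate 4 libraries kept, the values were 1.17 under *elp3 tcd1* (edgeR adjusted p = 0.00293) and 0.73 under *urm1 tcd1*, no longer called (edgeR adjusted p = 0.0167).

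*EMI2*, the relative of *GLK1*, fell where *GLK1* rose. It had 170.1, 199, 157 and 162 CPM in *elp3 deg1* and 157, 179, 184 and 178 CPM in *urm1 deg1*. The libraries labelled *elp3 tcd1* held 74.3, 75.9 and 77.3 CPM, and those labelled *urm1 tcd1* 80.1, 81.2 and 88.6 CPM. WT held 201, 236, 213 and 215 CPM. The *deg1* mutants lay just under WT and overlapped each other, and the libraries of both *tcd1* labels lay far below, without overlap to any other group. Again, how many of all tested genes had such ranges was not counted. The fall was 1.26-fold in *elp3 deg1* (log2 -0.33 ± 0.06 SE, edgeR adjusted p = 6.98e-06) and 1.26-fold in *urm1 deg1* (log2 -0.33 ± 0.05 SE, edgeR adjusted p = 6.76e-08). It was 2.87-fold under the label *elp3 tcd1* (log2 -1.52 ± 0.06 SE, edgeR adjusted p = 5.06e-32) and 2.58-fold under *urm1 tcd1* (log2 -1.37 ± 0.06 SE, edgeR adjusted p = 1.06e-20). Both *tcd1* values were also called with replicate 4 kept, at -1.43 and -1.42.

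The mutants were next compared with each other in 1 fit over the 18 libraries, to ask how the 4 genes differed between strains. Each group is 1 strain, so a mutation and any other feature of its strain, such as the doubled chromosome XI level or the remaining *TCD1* reads, cannot be told apart. With *deg1* in both strains, *urm1 deg1* over *elp3 deg1* gave 3 called members of 4, where 62.4% of all tested genes were called in either direction, 31.0% higher and 31.4% lower (47.6% and 19.5% with library totals alone, which moved the median of all genes to 0.19). *HXK1* was higher in *urm1 deg1* (log2 1.297 ± 0.04 SE, edgeR adjusted p = 1.44e-29), *HXK2* lower (-1.10 ± 0.04, edgeR adjusted p = 8.08e-30) and *GLK1* lower (-0.57 ± 0.04, edgeR adjusted p = 8.73e-17). With both replicate 4 libraries kept in the fit, the call of *GLK1* was lost (-0.57, edgeR adjusted p = 0.0275), while *HXK1* (1.29) and *HXK2* (-1.10) were called. For *EMI2* the difference was 0.03 with a 95% interval of -0.09 to 0.14 (edgeR adjusted p = 0.671), its sign turned without *elp3 deg1* replicate 3 (-0.01) or 4 (-0.0006), and with library totals alone it was called at 0.22 (edgeR adjusted p = 0.0007).

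With *tcd1* in the labels, *urm1 tcd1* over *elp3 tcd1* also gave 3 called members, beside 60.0% of all genes, 29.7% higher and 30.3% lower (23.1% and 40.6% with upper quartile scaling, and 16.1% and 56.7% with library totals alone, median -0.34), but 2 of the 3 differed in the other direction. *HXK1* was lower in the libraries labelled *urm1 tcd1* (-0.32 ± 0.05, edgeR adjusted p = 1.06e-06) and *HXK2* higher (1.33 ± 0.05, edgeR adjusted p = 4.07e-29), while *GLK1* was lower (-0.92 ± 0.05, edgeR adjusted p = 1.9e-21). *EMI2* differed by 0.14, with a 95% interval of -0.04 to 0.32 (edgeR adjusted p = 0.169), and by -0.17 with library totals alone. With both replicate 4 libraries kept, no member was called here, at -0.14 for *HXK1*, 0.68 for *HXK2*, -0.44 for *GLK1* and 0.01 for *EMI2* (edgeR adjusted p = 0.301, 0.144, 0.153 and 0.917). In that fit 0 genes in all were called by edgeR, with 1909 at an unadjusted p under 0.05, and no other tool was run on it.

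Whether the difference between the *urm1* and *elp3* strains itself differed between the *deg1* and the *tcd1* strains was tested by an interaction term, which called 3 of the 4 members, where 67.6% of all genes were called, 33.6% above and 33.9% below 0 (41.0% and 27.6% with upper quartile scaling, 58.7% and 16.8% with library totals alone, median 0.52). The term is the log2 difference of *urm1 deg1* over *elp3 deg1* minus that of *urm1 tcd1* over *elp3 tcd1*. It was -2.42 ± 0.06 for *HXK2* (SE, edgeR adjusted p = 1.49e-35), 1.62 ± 0.07 for *HXK1* (SE, edgeR adjusted p = 1.85e-25) and 0.35 ± 0.06 for *GLK1* (SE, edgeR adjusted p = 6.29e-06). For *EMI2* it was -0.11 with a 95% interval of -0.33 to 0.11 (edgeR adjusted p = 0.348), and the sign turned with upper quartile scaling (0.04), with replicate 4 kept (0.01) and with library totals alone (0.39, called with an edgeR adjusted p of 0.000999). *HXK2* was thus lowest in *urm1 deg1* among the *deg1* strains and under *elp3 tcd1* among the *tcd1* labels. Keeping both replicate 4 libraries left *HXK2* (-1.78, edgeR adjusted p = 0.000587) and *HXK1* (1.43, edgeR adjusted p = 3.85e-07) called, while *GLK1* turned to -0.14 (edgeR adjusted p = 0.717).

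Setting *deg1* against *tcd1* strains with the same partner gave the following. In *elp3 deg1* over *elp3 tcd1*, 3 members were called, beside 59.9% of all genes, 1753 higher and 1751 lower (1114 higher and 2643 lower with library totals alone, median -0.19): *HXK2* (1.78 ± 0.04, edgeR adjusted p = 1.28e-35) and *EMI2* (1.18 ± 0.07, edgeR adjusted p = 2.02e-19) were higher in *elp3 deg1* and *HXK1* lower (-0.28 ± 0.05, edgeR adjusted p = 3.1e-06). *GLK1* differed by 0.11 with a 95% interval of 0.02 to 0.19 and was not called (edgeR adjusted p = 0.0303), although it was without *elp3 deg1* replicate 3 (0.14, edgeR adjusted p = 0.00454), and with library totals alone the value was -0.07. In *urm1 deg1* over *urm1 tcd1* all 4 members were called, beside 68.3% of all genes, 34.4% higher and 33.9% lower (57.4% and 19.5% with library totals alone, median 0.36). *HXK1* (1.34 ± 0.05, edgeR adjusted p = 2.94e-28), *EMI2* (1.07 ± 0.07, edgeR adjusted p = 1.49e-17) and *GLK1* (0.45 ± 0.05, edgeR adjusted p = 1e-11) were higher in *urm1 deg1* and *HXK2* was lower (-0.65 ± 0.04, edgeR adjusted p = 2.66e-19). With replicate 4 kept, *HXK1* lost its call in *elp3 deg1* over *elp3 tcd1* (-0.18), and *HXK2* (-0.43) and *GLK1* (0.17) lost theirs in *urm1 deg1* over *urm1 tcd1*.

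Because *HXK2* fell while *GLK1* or *HXK1* rose, the mixture of the 4 mRNAs was described as shares of their summed CPM per kilobase, without a test. The 3 genes known as repressed by glucose, *HXK1*, *GLK1* and *EMI2*, together made up 65.4 ± 1.6% of the sum in *elp3 deg1* and 82.0 ± 0.6% in *urm1 deg1* (SD, n = 4). Under the labels they made up 86.1 ± 0.4% for *elp3 tcd1* and 61.0 ± 1.9% for *urm1 tcd1* (SD, n = 3), against 44.2 ± 0.9% in WT (SD, n = 4). Every mutant library used, with 59.6% to 86.5%, lay above every WT library, with 43.0% to 45.2%. This joint share is what *HXK2* leaves of the sum, so a fall of *HXK2* raises it even without a rise of the 3 genes. It does not show that the 3 genes rose together, and *EMI2* fell in every mutant. With replicate 4 kept the share was 79.7 ± 12.8% under *elp3 tcd1* and 66.9 ± 11.9% under *urm1 tcd1* (SD, n = 4).

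The genes behind these shares were not the same in each mutant. *GLK1* made up 44.2 ± 1.0% of the sum in *elp3 deg1* and 56.8 ± 1.2% under the label *elp3 tcd1*, against 18.98 ± 1.17% in WT. *HXK1* made up 42.3 ± 0.7% in *urm1 deg1*, against 16.7 ± 0.5% in WT, and its share in *elp3 deg1*, 15.4 ± 0.4%, was below that in WT. *EMI2*, although counted as repressed by glucose, had a smaller share in every mutant, from 3.47 ± 0.07% under *elp3 tcd1* to 6.48 ± 0.45% in *urm1 deg1*, against 8.56 ± 0.29% in WT (SD). An alternative chosen after seeing the data took gene lengths without the bases shared with another gene. Reads that only reach into those bases are lost too, so these lengths do not correct for the whole loss. *HXK2* then made up 13.0 ± 0.4% under *elp3 tcd1*, 37.1 ± 1.9% under *urm1 tcd1* and 54.03 ± 0.92% in WT. In replicate 3 labelled *urm1 tcd1*, *HXK2* and *GLK1* were nearly level on these lengths (34.99% and 34.91%).

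**Figure D3:**
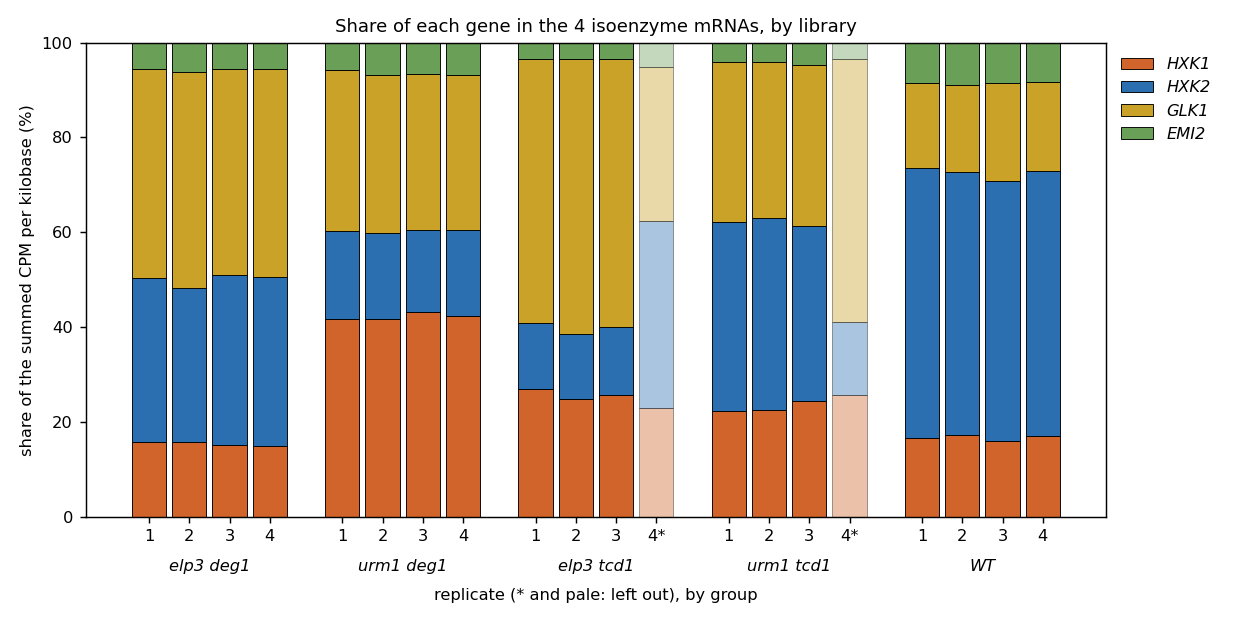
Share of each gene in the summed CPM per kilobase of the 4 genes (vertical axis, percent), with 1 stacked bar for each library (horizontal axis) and pale bars for the 2 libraries left out. *HXK2* takes 13.5% to 14.3% in the bars labelled *elp3 tcd1* that were used and 54.8% to 57.0% in the WT bars, and the pale bars resemble the bars of the other *tcd1* label.

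The sum of the 4 genes varied less than its parts. It was 2005 ± 126 CPM per kilobase in *elp3 deg1* and 1794 ± 41 in *urm1 deg1* (SD, n = 4). Under the labels it was 1454 ± 7 for *elp3 tcd1* and 1297 ± 22 for *urm1 tcd1* (SD, n = 3), against 1681 ± 75 in WT (SD, n = 4). So the *deg1* mutants lay above WT, with each library of them between 1756 and 2169 and the WT libraries between 1584 and 1751, and the libraries of the *tcd1* labels lay below, between 1272 and 1461. With replicate 4 kept the sums were 1395 ± 118 under *elp3 tcd1* and 1339 ± 85 under *urm1 tcd1* (SD, n = 4). The sums rest on TMM scaling, and other scalings of them were not computed. The hexokinase pair and the glucokinase pair moved apart: *HXK1* and *HXK2* together were below WT in every mutant, from 577 ± 15 CPM per kilobase under *elp3 tcd1* (SD, n = 3) to 1081 ± 27 in *urm1 deg1* (SD, n = 4), against 1218 ± 55 in WT. *GLK1* and *EMI2* together were at 1002 ± 88 in *elp3 deg1*, 712 ± 16 in *urm1 deg1* and 876 ± 21 under *elp3 tcd1*, against 463 ± 30 in WT, while 492 ± 5 under *urm1 tcd1* lay just above the highest WT library (486 against 485 at the nearest libraries).

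The ratio of relatives was then taken within each pair. *HXK1* over *HXK2* was 0.446 ± 0.032 in *elp3 deg1* and 2.35 ± 0.12 in *urm1 deg1* (SD, n = 4). It was 1.85 ± 0.08 under *elp3 tcd1* and 0.594 ± 0.060 under *urm1 tcd1* (SD, n = 3), against 0.299 ± 0.009 in WT (SD, n = 4). *HXK1* thus exceeded *HXK2* in every library of *urm1 deg1* and in every used library labelled *elp3 tcd1*, and in no other library used. *GLK1* over *EMI2* was 7.77 ± 0.20 in *elp3 deg1*, 5.15 ± 0.46 in *urm1 deg1*, 16.4 ± 0.4 under *elp3 tcd1* and 7.89 ± 0.47 under *urm1 tcd1*, against 2.22 ± 0.16 in WT (SD). The ranges of this ratio did not overlap between WT and any mutant. With replicate 4 kept, the mean log2 ratio of *HXK1* over *HXK2* was 0.47 in place of 0.89 under *elp3 tcd1* and -0.38 in place of -0.76 under *urm1 tcd1*, and that of *GLK1* over *EMI2* was 3.69 in place of 4.03 and 3.24 in place of 2.98.

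**Figure D4:**
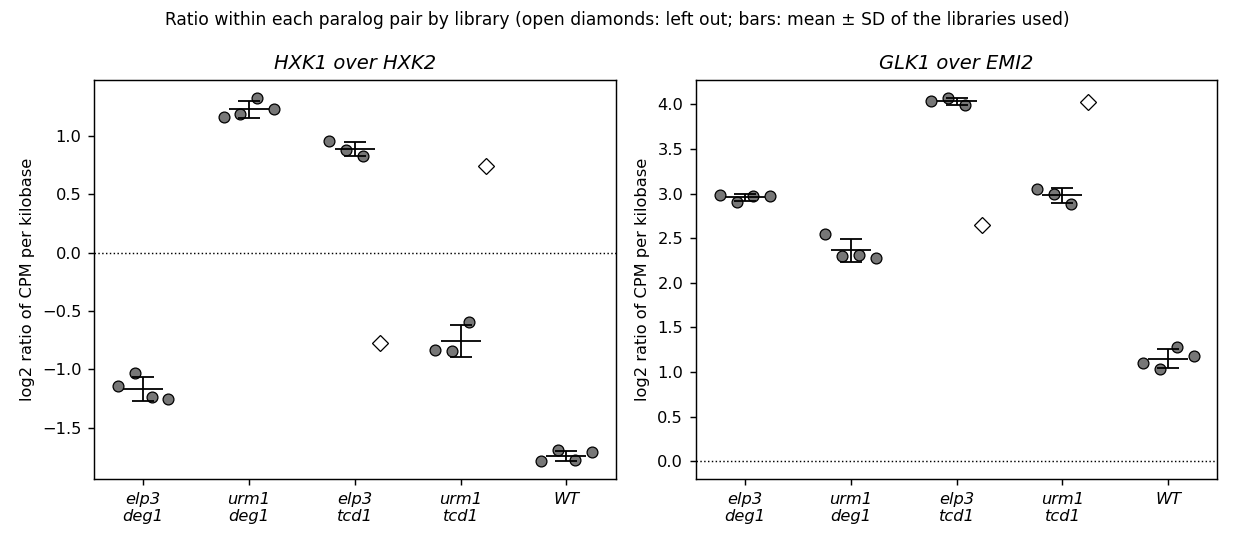
Log2 ratio of *HXK1* over *HXK2* (left) and of *GLK1* over *EMI2* (right), in CPM per kilobase (vertical axes), in each library by group (horizontal axes), with mean and SD of the libraries used and open diamonds for those left out. On the left *urm1 deg1* and the used libraries labelled *elp3 tcd1* lie above 0, and on the right every library lies above 0 with WT the lowest, between 1.04 and 1.28.

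The genes whose pattern was most like each member over the 18 libraries were found by Pearson's r of log2 CPM among 5848 other tested genes. These correlations are descriptions. The libraries fall into 5 groups, so that many genes share such a pattern. For *HXK1* the highest were *TSC10* (r = 0.96), a reductase of sphingolipid synthesis, the hexose transporter gene *HXT4* (r = 0.96) and YLR177W (r = 0.96), and the lowest was *UGA3* (r = -0.99), which encodes the activator of 4-aminobutyrate catabolism. For *HXK2* they were *ADE3*, *HCR1* and *PMR1* (r = 0.98 each), which encode a one-carbon enzyme of purine synthesis, a translation initiation factor and a Golgi calcium pump, and the lowest was *COX26* (r = -0.98), for a protein of cytochrome oxidase. For *GLK1* they were *FUN14*, *TFS1* and *NNR1* (r = 0.99 each), and the lowest was YOR385W (r = -0.97). For *EMI2* they were *SHM2* (r = 0.97), *FRS1* (r = 0.97) and *COS111* (r = 0.96), and the lowest was *CTT1* (r = -0.97), the gene of cytosolic catalase. Between the members, r was 0.65 for *HXK2* and *EMI2* and between -0.59 and 0.24 for the other pairs.

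Lists of genes around glucose phosphorylation were then read against WT. They were drawn up with earlier results of these data known, and are described by counts, to be read against all tested genes, of which 32.1% to 33.2% rose and 32.2% to 33.4% fell in each mutant. Among genes for steps of glycolysis after phosphorylation, 14 of 16 rose and 0 fell in *elp3 deg1*, with a median log2 fold change of 1.04, where the median of all genes was 0.00. In *urm1 deg1*, 8 rose and 7 fell (median 0.05), under *elp3 tcd1* 8 rose and 3 fell (median 0.08), and under *urm1 tcd1* 12 rose and 1 fell (median 0.66). With library totals alone, 10 rose and 4 fell under *urm1 tcd1* (median 0.38), and *PFK27*, named after its values were seen, changed sign. 5 of the 16 rose in all 4 mutants (31.2%, where 9.97% of all tested genes did) and 0 fell in all 4. Of these 5, the largest rises on average over the mutants were those of *GPM1*, for phosphoglycerate mutase, and *FBA1*, for aldolase. The study listed both, and *ENO1*, *ENO2*, *PGK1*, *PGI1*, *TDH1*, *TDH2* and *TDH3* of this list, for their changes in these libraries, so that the rises are not independent evidence. On the log2 scale *FBA1* changed by 1.39 in *elp3 deg1*, by 0.44 in *urm1 deg1*, by 0.79 under *elp3 tcd1* and by 2.36 under *urm1 tcd1*, and *GPM1* by 1.67, 0.80, 0.53 and 2.18 in the same order. *FBA1* and *GPM1* lie on chromosome XI, whose genes were about doubled in the libraries labelled *urm1 tcd1*. Their values there, and their rank by average, include that shift. Genes of chromosome XI in this list and the lists below were not set apart. The mutant with the deepest fall of *HXK2*, that labelled *elp3 tcd1*, was one of those with a glycolysis median near 0. A relation between the fall of *HXK2* and these medians was not tested, and the median under *urm1 tcd1* includes genes of chromosome XI.

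Of 14 genes for other uses of glucose 6-phosphate (pentose phosphate pathway, trehalose and glycogen), 11 rose in *elp3 deg1*, 12 in *urm1 deg1*, 10 under *elp3 tcd1* and 7 under *urm1 tcd1*, while 1, 2, 4 and 3 fell. The medians were 0.71, 0.86, 1.04 and 0.36. With library totals alone, 5 rose and 6 fell under *urm1 tcd1*. 6 of the 14 rose in all 4 mutants (42.9%) and 0 fell in all 4. Of these 6, the largest rises on average over the mutants were those of *PGM2*, for phosphoglucomutase (1.36, 2.05, 2.72 and 0.42), and *GLC3*, for the glycogen branching enzyme (1.02, 2.26, 2.54 and 0.56, in the same order of mutants). The study listed *GLC3*, *GSY2*, *TSL1*, *TPS1* and *TPS2* for their changes in these libraries, so that the list is not independent evidence.

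Of 18 hexose transporter genes, 13 were tested. 4 rose and 3 fell in *elp3 deg1* (median -0.05), 10 rose and 1 fell in *urm1 deg1* (median 0.85), 5 rose and 2 fell under *elp3 tcd1* (median 0.22), and 2 rose and 7 fell under *urm1 tcd1* (median -0.79). 2 of the 13 rose in all 4 mutants and 1 fell in all 4 (15.4% and 7.69%, beside 9.97% and 10.7% of all tested genes). *HXT5*, a transporter gene of slow growth, rose in all 4 mutants (log2 2.10, 1.64, 4.96 and 2.83 in the same order), as did *HXT1*, for the low-affinity carrier induced by high glucose (1.15, 0.29, 0.59 and 1.32). *HXT2*, for a high-affinity carrier that high glucose represses, fell in all 4 (-3.21, -2.65, -3.12 and -2.18). Several genes of this family have near-identical copies (*HXT6* and *HXT7* among them), whose counts are uncertain. *HXT8*, *HXT9*, *HXT10*, *HXT12*, *HXT14* and *HXT17* had wide standard errors, from 0.22 for *HXT14* in *urm1 deg1* to 1.33 for *HXT12* under *urm1 tcd1*. The counts and medians of this list include all these genes. The median in *urm1 deg1* is the value of *HXT8*, which was not called, and that under *urm1 tcd1* is the value of *HXT6*.

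Of 26 genes of glucose signalling, 6 rose and 8 fell in *elp3 deg1*, 11 rose and 9 fell in *urm1 deg1*, 4 rose and 10 fell under *elp3 tcd1*, and 7 rose and 10 fell under *urm1 tcd1*, with medians between -0.11 and 0.03. 0 rose and 5 fell in all 4 mutants (19.2%, beside 10.7% of all tested genes). Under *urm1 tcd1* with library totals alone, 4 rose and 17 fell. *CYC8*, for a subunit of the general corepressor, fell in all 4 (log2 -0.82, -1.27, -0.75 and -0.93 in the same order of mutants), and so did *MIG3*, for a relative of Mig1 (-0.72, -1.04, -0.67 and -0.99). *NRG1*, for a repressor of genes used in low glucose, also fell in all 4 (-1.52, -0.24, -0.48 and -0.59). *MIG1*, whose product acts with Hxk2, rose in *urm1 deg1* (0.26) and fell under *elp3 tcd1* (-0.41), with values of -0.04 in *elp3 deg1* and 0.11 under *urm1 tcd1* that were not called. *TUP1*, for the partner of Cyc8, fell in *elp3 deg1* (-0.22), *urm1 deg1* (-0.53) and *urm1 tcd1* (-0.21) and was at -0.08 under *elp3 tcd1*, not called. *MED8*, for a Mediator subunit, fell under *urm1 tcd1* (-0.51) and was not called in the others (-0.04, -0.20 and -0.005). Like *HXK2* and *GLK1*, the genes *CYC8* and *NRG1* were singled out by the study on these libraries, and their changes here are not independent evidence.

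Of 17 other genes that glucose represses, more fell than rose in each mutant: 3 rose and 11 fell in *elp3 deg1* (median -0.69), 5 rose and 9 fell in *urm1 deg1* (median -0.20), 6 rose and 7 fell under *elp3 tcd1* (median -0.05), and 2 rose and 10 fell under *urm1 tcd1* (median -0.46). 1 rose and 2 fell in all 4 (5.88% and 11.8%), near or below the 9.97% and 10.7% of all tested genes. *SUC2*, for invertase, fell in all 4 mutants (log2 -0.65, -0.62, -1.48 and -1.22), as did *CAT8*, for an activator of gluconeogenesis (-1.08, -0.54, -0.52 and -0.86), while *CYB2*, for lactate dehydrogenase, rose in all 4 (1.42, 1.60, 2.93 and 2.07). The median under *elp3 tcd1* was 0.03 with upper quartile scaling. The study listed *FBP1* and *PCK1* of this list for their changes in these libraries, so that the list is not independent evidence. *GLK1* had the sign of *CYB2*, and *EMI2* that of *SUC2* and *CAT8*. These genes were named because each was called alike in all 4 mutants, so the matches follow from that choice. The other genes of the list were not called alike in all 4.

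**Figure D5:**
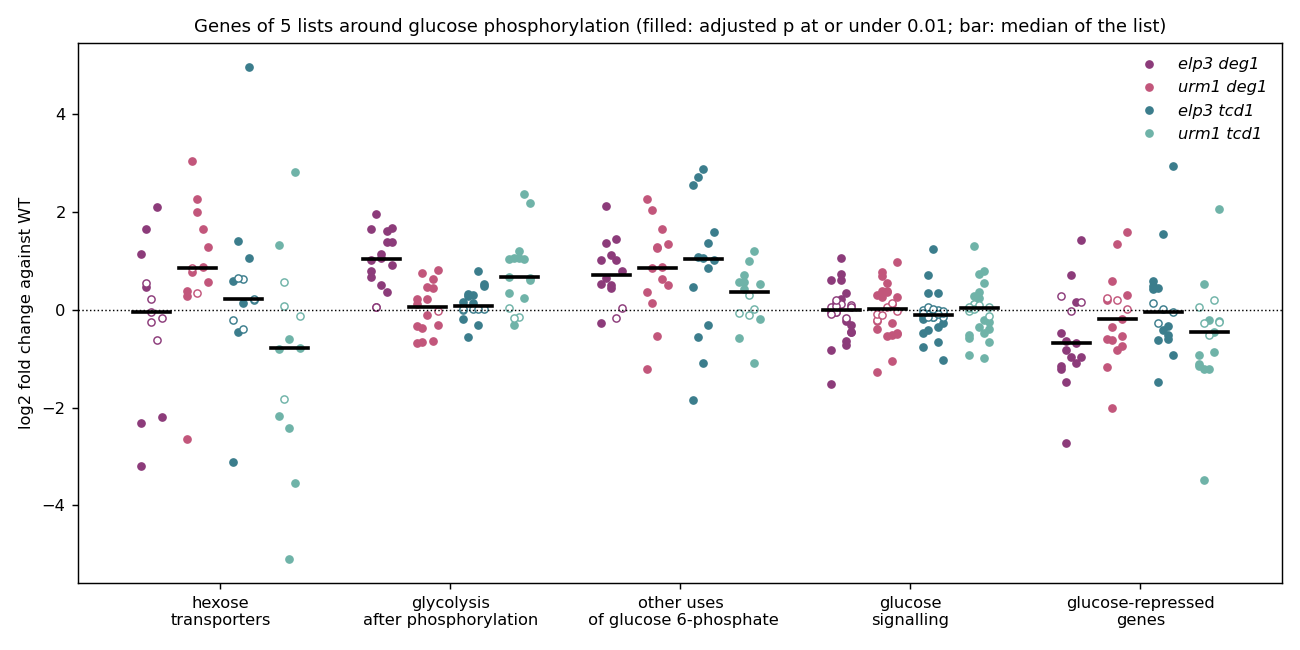
Log2 fold change against WT (vertical axis) of every tested gene of the 5 lists (horizontal axis) in the 4 mutants (colours, in the order of the legend), filled where the adjusted p was at or under 0.01, with a bar at the median. The glycolysis medians lie at 1.04, 0.05, 0.08 and 0.66, and those of the glucose-repressed genes at -0.69, -0.20, -0.05 and -0.46.

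The modifications missing in these strains bear on the decoding of AAA (lysine) and CAA (glutamine) codons, so the codons of the 4 genes were counted. The study assigns the CAA defect to the *deg1* strains and the AAA defect to the *tcd1* strains. Codons read by the glutamate tRNA, which also carries the wobble modification, were not counted. *HXK2* holds 22 CAA among 486 codons (4.53%), above 92.7% of 5688 genes, and 0 CAG. *HXK1* holds 13 CAA in 485 codons (2.68%), *GLK1* 9 in 500 (1.8%) and *EMI2* 8 in 500 (1.6%), beside a median of 2.54% over all genes. AAA made up 1.86% of the codons in *HXK1*, 2.67% in *HXK2*, 1.6% in *GLK1* and 2.2% in *EMI2*, all below the median of 4.12%. Protein was not measured in these libraries, and a link between codons and mRNA levels was not tested.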

How the data were processed

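Read counts for each gene were deposited, which the authors made from single-end, strand-specific mRNA libraries aligned with STAR 2.5.1b to the R64 genome. The file headers name featureCounts v1.4.6-p2 with reverse-strand counting, while the labels name HTSeq 1.4.6-p2. Per the labels, the authors tested with DESeq2 1.10.1. Groups came from the sample labels, and libraries held 3273876 to 3926511 counts. Members and gene lists were chosen with earlier results of these data known.

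Genes passing edgeR's filterByExpr (minimum count 10) over 18 libraries were fitted with edgeR 4.0.16 in R 4.3.3 (limma 3.58.1 loaded with it), using TMM scaling, the quasi-likelihood test and an adjusted p at or under 0.01. Each mutant was fitted with WT alone, and mutants with each other in 1 fit. Correlations used a prior count of 2. DESeq2 1.42.0 was the alternative tool. The alternatives were RLE, upper quartile and no composition scaling, no filter, 1 fit, replicate block, replicate 4 kept, leaving out chromosome XI or mitochondrial and rRNA genes, a threshold of 0.05, each replicate left out, and raw counts or a prior count for shares and ratios. Shares on lengths without the bases shared with another gene were added after seeing the data. The fits were tested on simulated data with few changed genes and 1 spread for all genes. That setting does not test the scaling or the calls where most genes change, as here. Python 3.11.15, pandas 2.3.3, numpy 2.4.6, scipy 1.17.1, Biopython 1.88 and matplotlib 3.10.9 did the rest. Named beside the members are the deleted genes, the 3 highest and 1 lowest correlated genes, per list up to 2 rises and 2 falls largest on average among genes called alike in all 4 mutants, and *MIG1*, *MED8*, *CYC8*, *TUP1* and *NRG1*. Genes named only as copies, as listed by the study, for a changed sign or for a wide standard error fall outside this rule. Gene names came from RefSeq, where 6048 identifiers matched.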

Additional observations from a re-analysis of the deposited data

Results flagged for a closer look

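Libraries that stood apart were looked for in each set of 4 libraries of a group, as labelled, for each member. 4 of 20 sets had 1 library far from the others (chance gives about 1 in 20), and all 4 were replicate 4 of a *tcd1* label. Both libraries were already known to go against their labels in the deleted genes, so this count is not a new finding. In replicate 4 labelled *elp3 tcd1*, *HXK2* had 701 CPM (others 289 to 304), *GLK1* 593 (others 1215 to 1276) and *EMI2* 94.3 (others 74.3 to 77.3). In replicate 4 labelled *urm1 tcd1*, *GLK1* had 1220.1 CPM (others 649 to 665).

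These 2 libraries were in no main comparison, and values in them lay above the highest WT library. *GLK1* was above WT in both (593 and 1220.1 CPM, against at most 517 CPM in WT), and *HXK1* in replicate 4 labelled *urm1 tcd1* (549 CPM, against at most 437 CPM in WT).

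The difference between *urm1* and *elp3* strains was not the same in the *deg1* strains as under the *tcd1* labels by the interaction term for *HXK1* (1.62), *HXK2* (-2.42) and *GLK1* (0.35), with edgeR adjusted p-values of 1.85e-25, 1.49e-35 and 6.29e-06. With both replicate 4 libraries kept, the value of *GLK1* was -0.14 (edgeR adjusted p = 0.717). Each group is 1 strain, the *urm1 tcd1* libraries had chromosome XI about doubled and those labelled *elp3 tcd1* kept 40.6% of the WT *TCD1* level, so the partner mutation and these features cannot be told apart.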

How the results depend on the processing

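Of 368 values of the members' fold changes under other settings, 346 kept their direction and call, and of 368 with a replicate left out, 361 did. For the causes of the changes no test was made. For *HXK1* in *elp3 deg1*, DESeq2 (0.15) and library totals alone (0.0072) lost the call, and leaving out 1 replicate gave 0.0908 to 0.18. For *HXK1* under *urm1 tcd1*, a threshold of 0.05 (0.10) and leaving out chromosome XI (0.14) made it a call, and library totals alone turned it to -0.18. For *GLK1* in *elp3 deg1* over *elp3 tcd1*, the threshold of 0.05 made 0.11 a call, library totals gave -0.0653, and leaving out 1 replicate gave 0.0491 to 0.14. For *EMI2*, library totals gave 0.22 in *urm1 deg1* over *elp3 deg1* (a call), -0.17 in *urm1 tcd1* over *elp3 tcd1* and 0.39 for the interaction, where upper quartile scaling gave 0.0374. Leaving out 1 replicate gave -0.0108 to 0.11 for *EMI2* in *urm1 deg1* over *elp3 deg1*, with -0.0006 without *elp3 deg1* replicate 4.

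With replicate 4 of both *tcd1* labels kept, calls were lost for *HXK1* under *elp3 tcd1* (0.32), *GLK1* under *urm1 tcd1* (0.73), *GLK1* in *urm1 deg1* over *elp3 deg1* (-0.57), *HXK1* (-0.14), *HXK2* (0.68) and *GLK1* (-0.44) in *urm1 tcd1* over *elp3 tcd1*, *HXK1* in *elp3 deg1* over *elp3 tcd1* (-0.18), and *HXK2* (-0.43) and *GLK1* (0.17) in *urm1 deg1* over *urm1 tcd1*. The interaction turned to -0.14 for *GLK1* and 0.0083 for *EMI2*. Genes called by edgeR then numbered 1718 against 3769 under *elp3 tcd1*, 1901 against 3799 under *urm1 tcd1*, 2306 against 3647 in *urm1 deg1* over *elp3 deg1*, 0 against 3508 in *urm1 tcd1* over *elp3 tcd1* (1909 at an unadjusted p under 0.05), 2081 against 3504 in *elp3 deg1* over *elp3 tcd1*, 2610 against 3994 in *urm1 deg1* over *urm1 tcd1*, and 1942 against 3952 for the interaction.

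Libraries sharing a replicate number did not deviate together (mean r 0.0084 over 33 pairs, -0.0029 over 96 other pairs). With the replicate number as a block no member's call changed (*HXK1* in *elp3 deg1* 0.14, 3877 genes called).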
